A study of Mus musculus with 12 samples.

Results

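Of the 13770 protein-coding gene models measured by RNA-seq in fetal mouse brain, 46 carry a proteasome gene name, and their mRNA levels are described here across every brain of the study. They were chosen by symbol alone, as all names that begin with Psma, Psmb, Psmc, Psmd, Psme, Psmf or Psmg followed by a digit. Whole brains of C57BL/6 mice (C57BL/6J in the methods) were taken at embryonic day 18, 6 from dams that voluntarily drank saccharin-sweetened ethanol for a limited time each day through mating and pregnancy (prenatal alcohol exposure, PAE) and 6 from dams that drank saccharin alone (SAC). Each group had 3 male and 3 female brains, and the saccharin was common to both groups. Library names share the prefixes ES19, ES23 and ES27 (2 PAE brains each) and SAC12 and SAC26 (3 SAC brains each), but no source used here says what the prefixes stand for, litters included.

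The proteasome is the protease that degrades proteins tagged with ubiquitin. Its barrel-shaped 20S core has outer alpha rings, which gate the channel, and inner beta rings, which hold the catalytic sites. The 19S cap recognises the ubiquitin chain, removes it in its lid and unfolds the substrate with a ring of ATPases in its base. In neurons the proteasome takes part in synaptic protein turnover, and in most cells its subunit genes are transcribed together, driven under proteasome stress by the transcription factor Nfe2l1. Psmc3ip shares the name pattern but encodes a meiotic recombination protein that binds Psmc3, not a subunit. Psmb9, Psmb11, Psma8 and Psme2b were not analysed here.

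Proteasome mRNAs were abundant. FPKM, the length-scaled unit of the deposited tables, averaged 36.9 at the median of the 45 members that reached a mean of 1 FPKM, against 7.17 at the median of all 12346 genes that did so. The highest was Psma6, an alpha ring subunit, with a mean of 104.8 FPKM over the 12 brains, and the lowest was Psmg3, a chaperone that helps assemble the 20S core, with 4.18 FPKM. Psmb8, the immunoproteasome form of the beta5 subunit, stayed under the limit at 0.224 to 0.603 FPKM and was left out of all tests. The summed FPKM of the members made up 0.722% to 0.774% of each PAE library and 0.709% to 0.728% of each SAC library. The ranges overlapped through ES23-7 alone, and the other PAE libraries were at 0.738% or more.

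**Figure D1:**
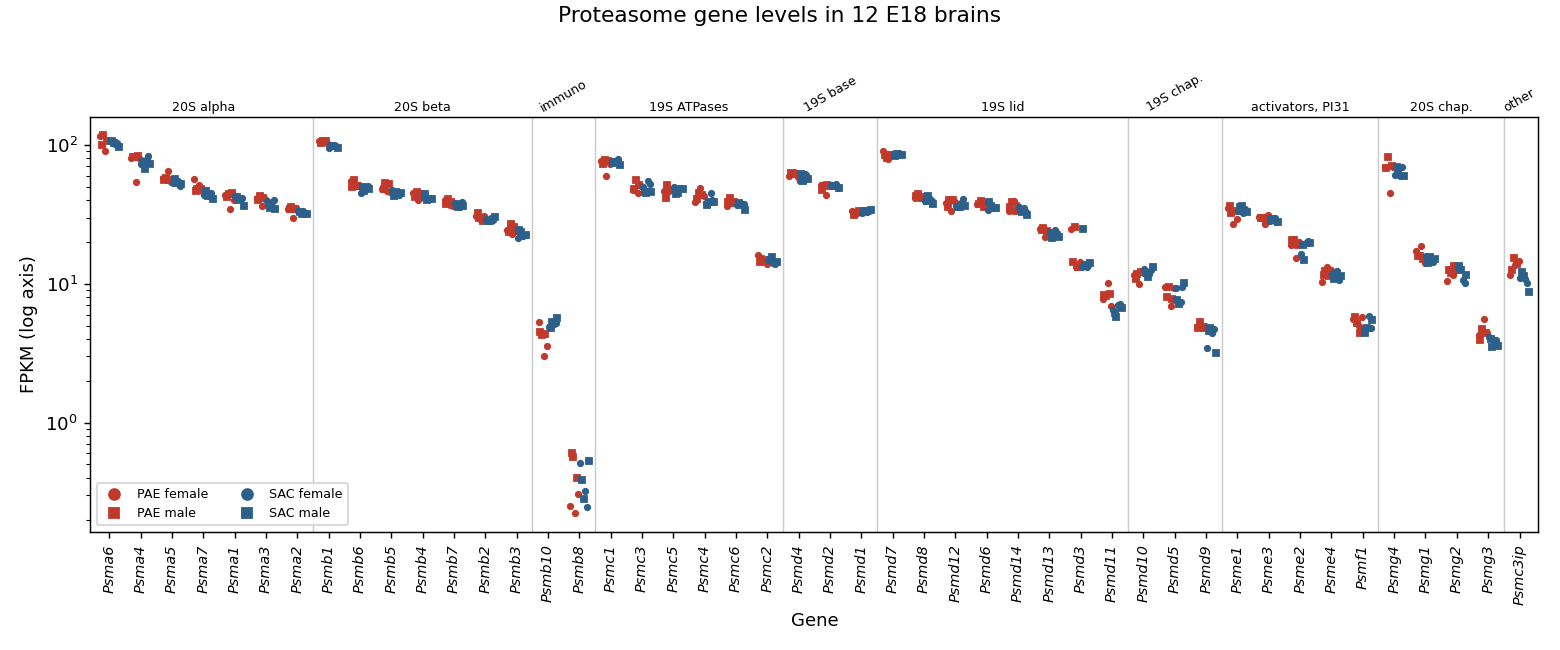
Deposited FPKM of the 46 members in each of the 12 brains on a log axis, with genes grouped by role and ordered by mean level within a group (red PAE, blue SAC, circles female, squares male). Psmb8 lies under 1 FPKM in every brain, and Psmd3 splits into 3 brains at 24.6 to 25.5 FPKM and 9 at 13.1 to 14.4.

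The level of a member depended on which deposited table was read. The transcript table sums to 144 FPKM for Psma7, an alpha ring subunit, while the gene table gave it 46.6, a ratio of 0.324 and the smallest among the members. At the median member the gene value was 0.700 of the transcript sum, and for Psmf1, the regulator PI31, it was 1.34 of it. The order of members by level is therefore that of the gene table only. Between brains the members varied little. The coefficient of variation over the 12 brains had a median of 6.83% for members and 10.7% for all genes tested, with Psmd1, a scaffold of the 19S base, lowest at 2.17% and Psmd3, a lid subunit, highest at 31.1%. Of the 45 members, 34 (75.6%) stayed under 10%, against 45% of all genes. Higher expressed genes vary less on this scale, and the 2 sets were not matched for level.

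The comparison of PAE and SAC brains asks whether alcohol exposure in the womb alters mRNA levels in the fetal brain. Psmb1, Psma7, Psmd11 and Psmc3ip were higher in PAE brains by limma's test across all genes with Benjamini-Hochberg adjustment, and no member was lower. Hence 4 of the 45 members passed an adjusted p of 0.05, or 8.89%, beside 9.56% of all genes tested, and the members were called no more often than genes in general. All genes split into 536 higher and 644 lower, or 4.34% and 5.22%. No member reached a 1.5-fold change, which 0.996% of genes did with an unadjusted p under 0.05.

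Psmb1, a non-catalytic subunit of the beta ring (chr17:15475721-15498276, minus strand, GRCm38), was measured at 102 to 107 FPKM in PAE brains with a median of 106, and at 94.7 to 98.7 in SAC brains with a median of 98.1. Every PAE brain lay above every SAC brain, and the spread within a group was small. The means were 105 ± 2.40 and 97.2 ± 1.84 (SD, n = 6 each), a log2 difference of 0.11 with a standard error of 0.028 and a limma adjusted p of 0.0310. Over the 924 splits of the brains the exact two-sided permutation p was 0.00216, the smallest the design allows. In both sexes the log2 difference was 0.11. Groups that do not overlap were found for 2 of 45 members (4.44%), Psmb1 and Psmd9, and for 4.03% of all genes.

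Psma7 (chr2:180036373-180042433, minus strand) ran from 46.6 through a median of 47.9 to 57.0 FPKM in PAE brains and from 41.1 through 43.4 to 46.6 in SAC brains. ES19-4, from a female, had the highest value, and 5 of 6 PAE brains lay above the highest SAC brain. Its mean was 49.5 ± 4.02 FPKM in PAE and 43.7 ± 1.85 in SAC (SD, n = 6 each), a log2 difference of 0.17 with an adjusted p of 0.0474, close to the threshold. The call was lost with the name prefix as a random block (adjusted p = 0.0617), with sex as a covariate (0.0533), without the filter on low values (0.05001), under quantile normalization (0.0673), without moderation (0.0699), after the loess correction (0.0601) and in sums of the transcript table (0.102), while the log2 difference stayed between 0.15 and 0.17.

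Psmd11, the lid subunit Rpn6 that helps hold the cap on the core (chr11:80428615-80473248, plus strand), ran from 6.91 through 8.20 to 10.1 FPKM in PAE brains and from 5.74 through 6.60 to 7.13 in SAC brains. The female brain ES23-7 was the highest of the 12, and 1 PAE brain, ES27-4, fell inside the SAC range. This was the largest difference among true subunits, with means of 8.26 ± 1.03 and 6.55 ± 0.540 FPKM (SD, n = 6 each), a log2 difference of 0.29 and an adjusted p of 0.0332. Its main transcript, Psmd11-201, averaged 15.2 ± 2.78 FPKM in PAE and 10.6 ± 1.57 in SAC. Its limma adjusted p was 0.112 over all transcripts. A minor transcript averaged 1.27 ± 1.29 FPKM in PAE and 1.93 ± 1.20 in SAC. The other minor transcripts had higher means in PAE. They averaged 1.43 ± 1.77 and 0.545 ± 0.166 FPKM in PAE, and 0.581 ± 0.785 and 0.309 ± 0.214 in SAC. In sums over the transcripts of the gene the call was lost, at a log2 difference of 0.42 and an adjusted p of 0.0561.

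Psmc3ip (chr11:101091823-101095436, minus strand) had the largest log2 difference of the 45, 0.32 with an adjusted p of 0.0296. It ran from 11.5 through 13.8 to 15.3 FPKM in PAE brains and from 8.72 through 10.96 to 12.2 in SAC brains, and 5 of 6 PAE brains lay above all SAC brains. Its exons overlap those of Mlx on the opposite strand, and since strand use in the counting is not stated, its value is uncertain. Without this gene, 3 of the called members are proteasome subunits.

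**Figure D2:**
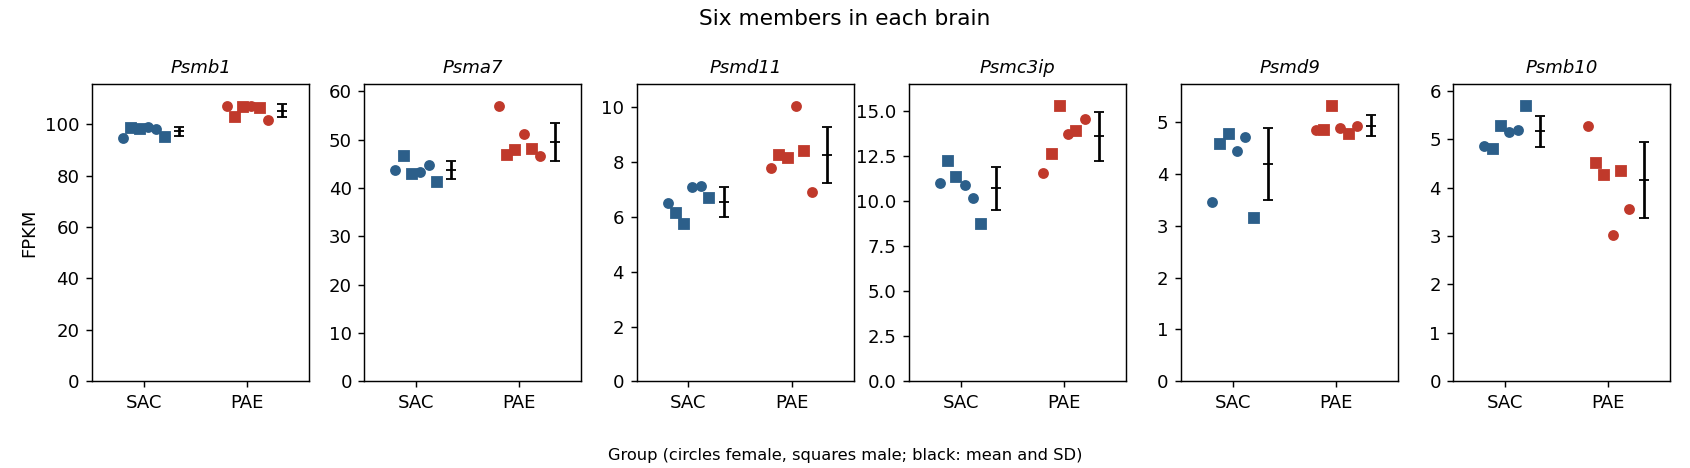
FPKM in each brain for the 4 called members and for Psmd9 and Psmb10, with linear axes from 0 (circles female, squares male, black marks the mean and SD of 6 brains). Psmb1 and Psmd9 do not overlap between the groups, and 5 of 6 PAE brains lie under the lowest SAC brain for Psmb10.

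These calls rested on the full set of brains. Leaving out 1 library at a time, Psmb1 passed in 6 of 12 fits, Psmc3ip in 5, Psmd11 in 4 and Psma7 in 2. No member passed without ES23-4, ES27-1, SAC12-5, SAC12-7, SAC26-7 or SAC26-8, where 1% to 5.09% of all genes passed. Without ES19-8 the 2 that passed were Psmb1 and Psmc3ip (4.44%, all genes 5.75%). Without ES27-4 they were Psmb1 and Psmd11 (4.44%, all genes 4.53%). Leaving out ES23-7, SAC12-6 or SAC26-5 left 3 in each case (6.67%), beside 6.76%, 7.62% and 9.05% of all genes. Leaving out ES19-4 gave 6, the same 4 with Psmb10 and Psmg3, or 13.3% beside 19.3% of all genes.

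Most other members had slightly higher means in PAE brains and did not pass, also where their difference exceeded that of Psmb1. The log2 difference was above 0 for 37 of 45 members (82.2%) and for 51.7% of all genes, with medians of 0.057 and 0.0052. In absolute size the members' differences were smaller than those of other genes, with a median of 0.070 against 0.093. At an unadjusted p under 0.05, 14 members were higher (31.1%, all genes 13.7%) and 1 was lower (2.22%, all genes 14.8%). The members share the same 12 brains, so that these counts are not 45 separate observations.

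**Figure D3:**
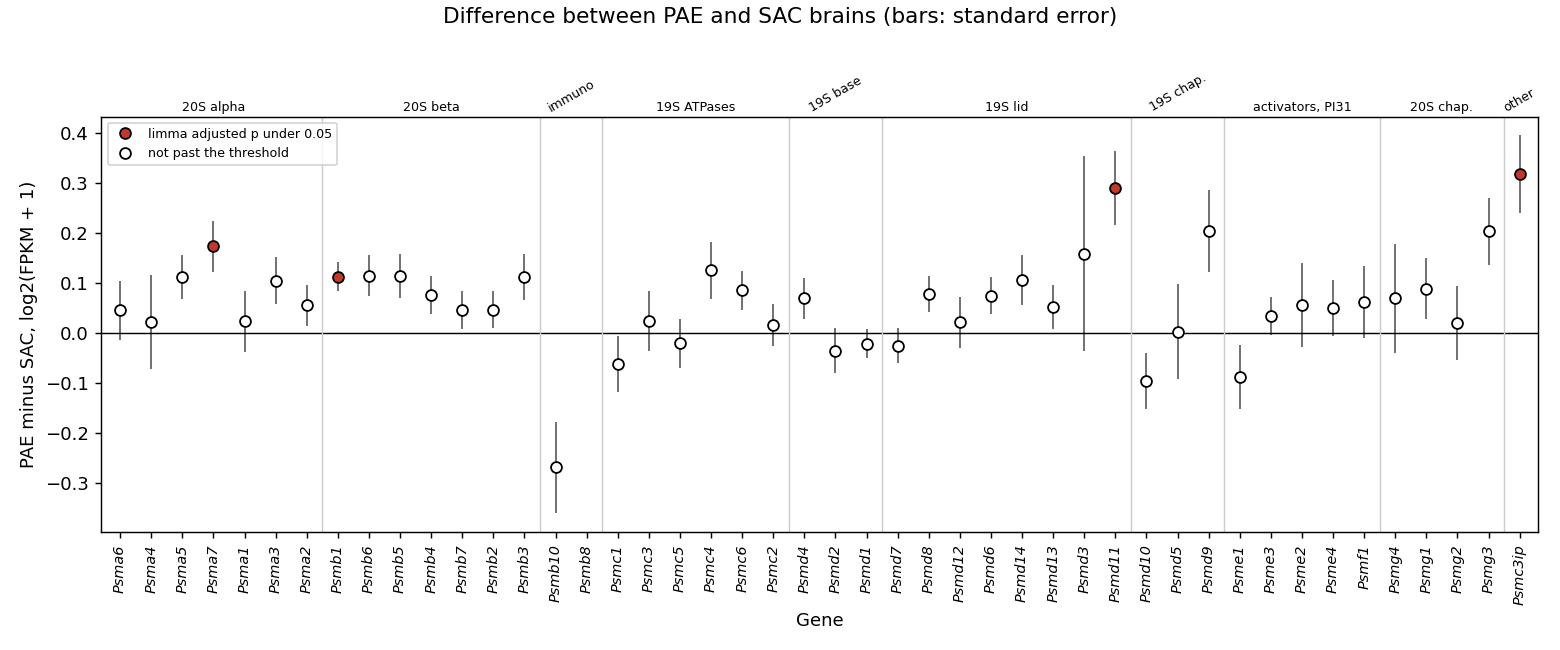
Difference between PAE and SAC brains in log2(FPKM + 1) for the 45 members tested, with bars of 1 standard error, grouped by role (filled red marks a limma adjusted p under 0.05). All 14 members of the alpha and beta rings lie above 0, Psmb10 is the lowest at -0.27, and Psmd3 has the widest bar.

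In the alpha rings, all 7 members had a log2 difference above 0, from 0.023 for Psma4 to 0.17 for Psma7, with a median of 0.056. Psma6, the most abundant, had means of 107 ± 10.1 FPKM in PAE and 103 ± 4.21 in SAC (SD, n = 6 each) and an adjusted p of 0.644. Psma4 measured 78.8 to 83.0 FPKM in 5 PAE brains and 54.5 in ES23-7. The SAC brains, at 66.9 to 82.7, overlapped the 5 and lay above ES23-7.

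In the beta rings, all 7 members were again above 0, from 0.046 to 0.12, with a median of 0.11. The catalytic subunits did not pass the adjusted threshold. Psmb5, which carries the chymotrypsin-like site, had means of 49.0 ± 3.06 and 45.1 ± 1.75 FPKM (SD, n = 6 each), a log2 difference of 0.12 and an adjusted p of 0.105. Psmb6, with the caspase-like site, had 52.2 ± 2.53 and 48.1 ± 2.21 FPKM, a log2 difference of 0.11 and an adjusted p of 0.0892. Psmb7, with the trypsin-like site, had the smallest difference of the ring at 0.046 and an adjusted p of 0.449.

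Of the immunoproteasome subunits, which interferon induces and which replace the catalytic subunits in immune cells, Psmb10 was the one tested. This counterpart of Psmb7 (chr8:105935735-105938444, minus strand), ran from 3.02 through 4.31 to 5.28 FPKM in PAE brains and from 4.80 through 5.17 to 5.70 in SAC brains. Every PAE brain but ES19-4 lay under the lowest SAC brain. The log2 difference was -0.27 and the adjusted p 0.0758, so it did not pass. In alternatives other than leaving out 1 library the difference ran from -0.42 in sums of the transcript table to -0.14, with an adjusted p of up to 0.594. Psmb10 passed in 5 of 25 alternatives. These were library weights, the loess correction, transcript sums, leaving out ES19-4 (adjusted p = 0.0168), and leaving out both ES19-4 and SAC12-6. Psmb7 exceeded Psmb10 by 7.65 to 12.2 times in PAE brains and by 6.34 to 7.88 times in SAC brains. Psmb8, not tested, had means of 0.391 ± 0.161 FPKM in PAE and 0.379 ± 0.118 in SAC (SD, n = 6 each).

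Microglia and endothelial cells express immunoproteasome genes. The 9 microglial and macrophage markers measured summed to 32.4 to 34.3 FPKM in 5 PAE brains, 15.8 in ES27-4, and 28.7 to 32.1 in SAC brains, and none of the 7 tested passed in either direction. The 7 endothelial markers summed to 49.1 in ES27-4, 67.5 to 75.4 in the other PAE brains and 65.2 to 72.4 in SAC brains, with 1 of 7 lower, Flt1. ES27-4 held the second lowest Psmb10 value, 3.56 FPKM, and ES23-7, whose sums lay with those of the other brains, held the lowest. The part of these cells in the Psmb10 values was not tested.

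In the 19S base, the 6 ATPases had log2 differences from -0.061 for Psmc1 to 0.13 for Psmc4, 4 of them above 0, and none passed. Psmc1 measured 72.3 to 77.6 FPKM in 5 PAE brains, 60.2 in ES23-7 and 72.2 to 78.7 in SAC brains. Of the 3 other base subunits, the scaffolds Psmd2 and Psmd1 were at -0.035 and -0.021. The ubiquitin receptor Psmd4 was at 0.070, with means of 61.5 ± 1.91 FPKM in PAE and 58.6 ± 3.40 in SAC (SD, n = 6 each) and an adjusted p of 0.277.

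In the lid, 7 of 8 members were above 0, with a median of 0.077. Apart from Psmd11, values ran from -0.024 for Psmd7 to 0.16 for Psmd3, and Psmd14, the deubiquitinase that removes the ubiquitin chain, was at 0.11 with an adjusted p of 0.177.

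The levels of Psmd3 crossed the treatments. It measured 25.5 FPKM in ES23-4, 24.7 in ES19-4 and 24.6 in SAC12-6, and 13.1 to 14.4 in the other 9 brains. The 3 high brains include both treatments, both sexes and 3 prefixes, and no value fell in between. The gap on the log2 scale was 0.73, the widest of the 21 genes among 12346 that set these 3 brains above the rest. The 3 brains were picked by the values of Psmd3 itself, so its first place follows in part from that choice. Other splits of the brains were not searched. The next was Cdipt with 0.35, while most of the 21 were separated by little. The transcript table showed the same split, with Psmd3-201 at 43.6 to 48.4 FPKM in the 3 brains and 20.7 to 25.1 in the others. Psmd3 overlaps a processed transcript, Gm12356, on the opposite strand, and the part of that overlap was not tested. The PAE vs. SAC difference of 0.16 had a standard error of 0.20 and an adjusted p of 0.626.

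Psmd8, another lid subunit, was even at the gene level and uneven among its transcripts. The sum over its 4 transcripts ran only from 70.2 to 92.5 FPKM, while Psmd8-202 held from 19.9% to 94.8% of it. Psmd8-203 reached 49.0, 44.2 and 32.1 FPKM in ES19-4, ES23-4 and SAC12-5 and at most 9.12 elsewhere. Psmd8-207 was at 18.2 to 23.6 in ES19-8, ES23-4, ES23-7 and SAC26-8 and at most 0.781 in the others. Neither pattern followed treatment. Short-read estimates divide reads among overlapping transcripts, and no member transcript passed in the transcript table, where 0 of 64 member transcripts and 0 of 20937 in all were called by limma (13 and 3152 at an unadjusted p under 0.05, or 20.3% and 15.1%).

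**Figure D4:**
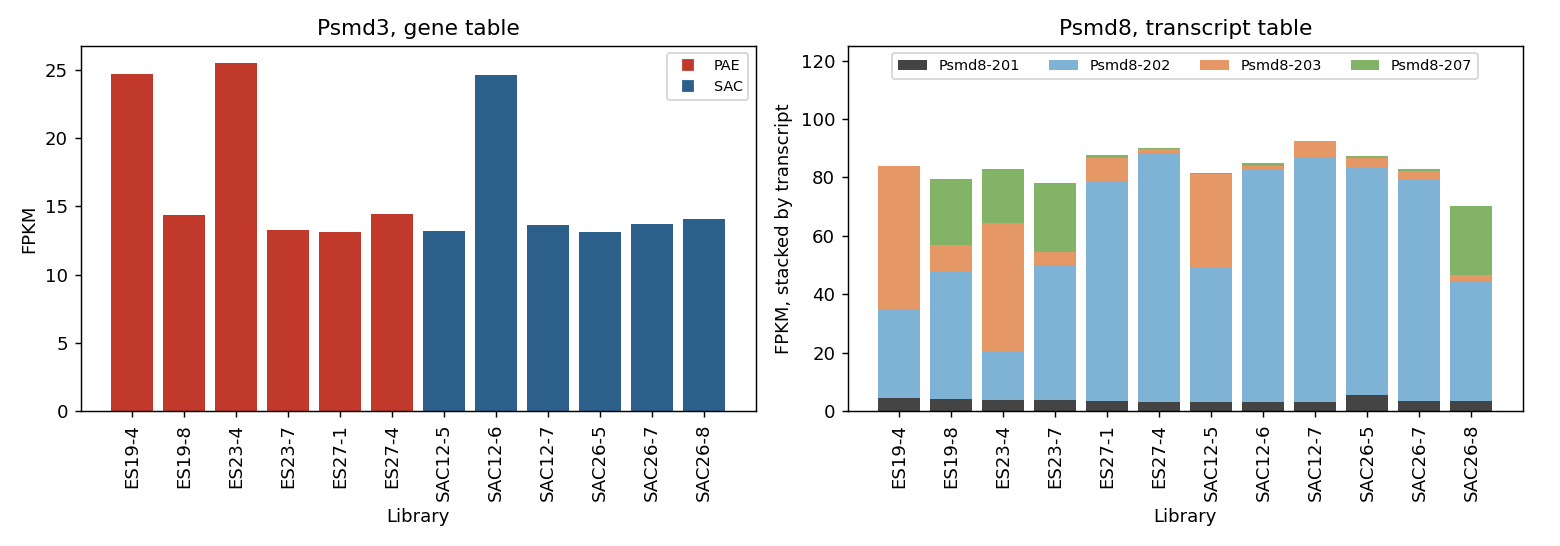
Left, Psmd3 in each of the 12 brains from the gene table in FPKM (red PAE, blue SAC), with ES19-4, ES23-4 and SAC12-6 at 24.6 to 25.5. Right, the 4 transcripts of Psmd8 stacked per brain in FPKM, where the sum stays between 70.2 and 92.5 while the parts trade places.

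The assembly chaperones of the base ran from -0.096 for Psmd10, known as gankyrin, to 0.20 for Psmd9. Psmd9 measured 4.78 to 5.31 FPKM in PAE brains and 3.16 to 4.77 in SAC brains, so that the groups did not overlap, by a narrow margin. The SAC spread came from SAC26-8 and SAC12-5, at 3.16 and 3.46, and the adjusted p was 0.122. Its exons overlap the non-coding Gm26745 on the opposite strand.

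The 4 chaperones of the 20S core were all above 0, from 0.021 for Psmg2 to 0.20 for Psmg3. Psmg3 measured 3.93 to 5.60 FPKM in PAE and 3.52 to 4.14 in SAC, with 5 of 6 PAE brains above the SAC range and an adjusted p of 0.0677. Its exons overlap those of Gm26938 on the same strand, so its value is uncertain. Same-strand overlaps also exist for Psmd1, with Gm21972, and for Psmb5, with the microRNA gene Mir686.

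Among the activators that can cap the core in place of 19S, Psme1 and Psme2 form the interferon-inducible 11S ring. Psme1 was at -0.087, with 27.1 to 36.3 FPKM in PAE and 32.4 to 36.3 in SAC, and Psme2 was at 0.057, with 15.4 to 20.8 and 14.9 to 20.4. Their ratio per brain was 1.47 to 1.85 in PAE and 1.65 to 2.43 in SAC, which overlap. Psmf1, the regulator PI31, was grouped with the activators here and had the highest log2 difference of that group, 0.063 with an adjusted p of 0.599.

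Brains differed in how many members stood at their extremes. ES23-4, a male PAE brain, was the highest of the 12 for 17 members (37.8%, beside 12.8% of all genes) and the lowest for none. ES23-7, a female PAE brain, was the lowest for 14 members (31.1%, beside 17.0% of all genes) and the highest for 10 (22.2%, beside 22.1%). Averaged over the 45 members, the deviation from each gene's mean was 0.11 in ES23-4 and -0.051 in ES23-7 on the log2 scale. The 6 SAC brains lay between -0.064 and -0.0070. ES23-7 thus fell inside the SAC range, and the other PAE brains, at 0.014 to 0.11, lay above it.

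**Figure D5:**
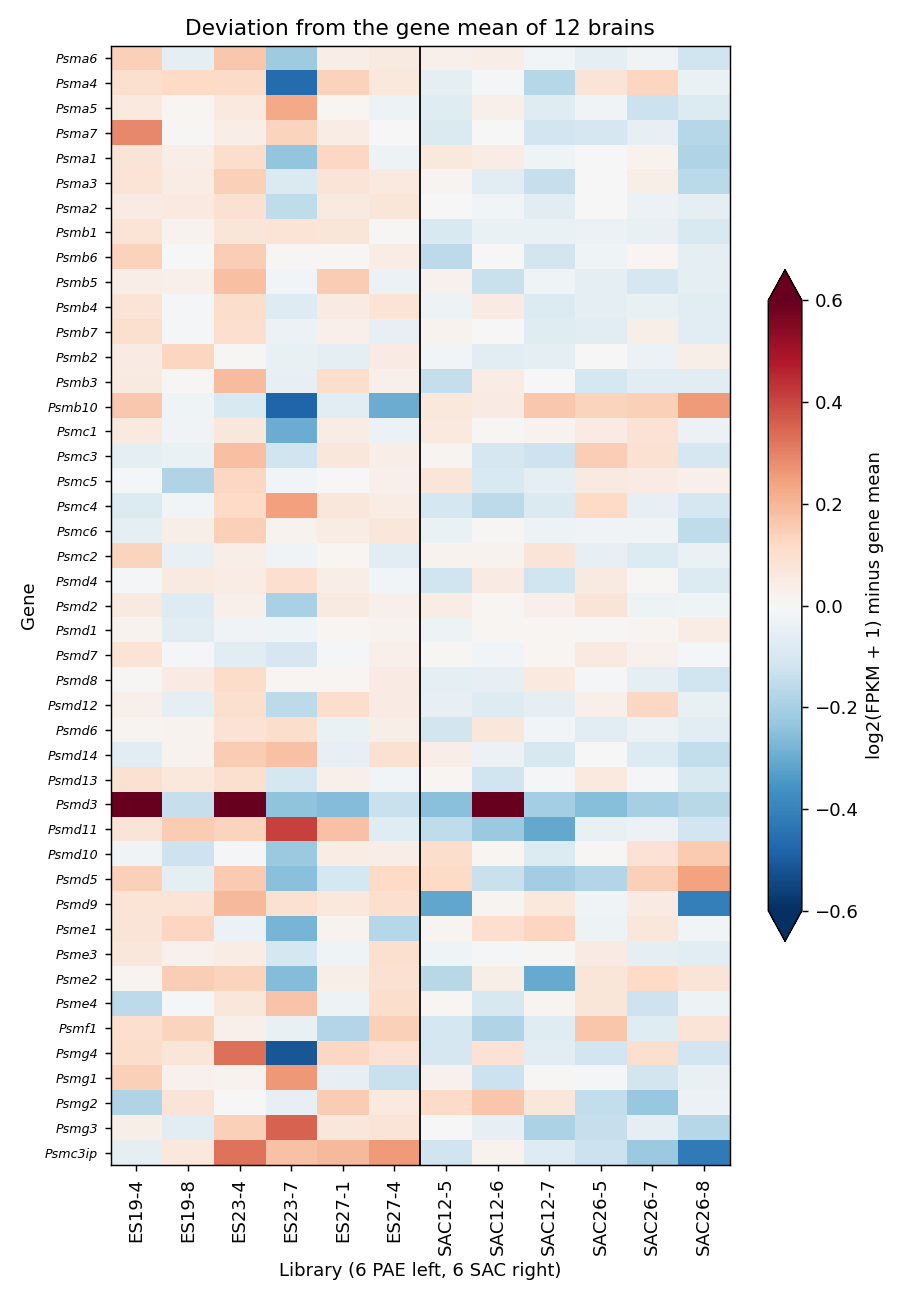
Deviation of each of the 45 members from its own mean over the 12 brains in log2(FPKM + 1), PAE brains left and SAC brains right, with the color scale cut at 0.6. ES23-7 mixes low values (Psma4, Psmb10, Psmg4) with high ones (Psmd11, Psmc4, Psmg3), and Psmd3 is high in 3 brains only.

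Within each sex the comparison had 3 brains against 3. In males no member passed (background 0.0324%), 8 had an unadjusted p under 0.05 (17.8%, all genes 19.3%), all of them higher (9.39% of all genes), and the smallest limma adjusted p was 0.116. The smallest unadjusted p was that of Psma3, an alpha subunit, at a log2 difference of 0.21. In females no member passed (background 0%), 7 had an unadjusted p under 0.05 (15.6%, all genes 14.3%), 6 higher and 1 lower (6.69% and 7.59% of all genes), and the smallest adjusted p was 0.308. There Psma7 led, at 0.22.

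The difference between the sexes in the response was tested as an interaction, and none of the 45 members passed (background 0.0081%), with 2 at an unadjusted p under 0.05 (4.44%, all genes 3.95%). The smallest p was that of Psmc3, an ATPase of the base. It measured 48.1 to 56.2 FPKM in male PAE brains and 45.2 to 46.1 in male SAC brains, but 45.4 to 50.8 in female PAE and 50.0 to 54.8 in female SAC brains. Males were thus higher with PAE without overlap, and females lower with overlap, at log2 differences of 0.18 and -0.13. The limma adjusted p of the interaction was 1.00, and Psmc3 exons overlap Slc39a13 on the opposite strand. Between females and males over both treatments no member passed (background 0.0324%), with 2 at an unadjusted p under 0.05 (all genes 2.8%), Psmg2 and Psmb3, both lower in females.

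The regulators of these genes come next. Nfe2l1, the transcription factor that restores proteasome genes when the protease is inhibited, measured 20.2, 22.0, 23.1 and 25.0 FPKM in ES23-4, ES27-4, ES19-8 and ES23-7 but 7.87 and 8.41 in ES19-4 and ES27-1, and 8.81 to 9.73 in the 6 SAC brains. Hence 4 PAE brains lay far above every SAC brain and 2 lay under every SAC brain. The log2 difference of 0.77 had a standard error of 0.26 and an adjusted p of 0.0715. A single transcript, Nfe2l1-203, carried the split, with 22.1 to 27.1 FPKM in the 4 brains and 2.48 to 4.39 in the other 8.

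The constitutive 20S genes did not divide the PAE brains the same way, and the part of Nfe2l1 in their levels was not tested. The mean deviation of the 14 constitutive 20S genes was 0.095 and 0.061 in ES19-4 and ES27-1, the brains with low Nfe2l1. In the brains with high Nfe2l1 it was 0.11, 0.028, 0.023 and -0.066 (ES23-4, ES19-8, ES27-4 and ES23-7). Nfyb, a subunit of the CCAAT-box factor NF-Y, was the factor of this list that passed, with 12.9 to 16.4 FPKM in PAE and 10.8 to 13.6 in SAC, a log2 difference of 0.25 and an adjusted p of 0.0369. In all, 1 of 11 such factors (9.09%) was higher and none lower, beside 9.56% of all genes called in either direction.

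Promoter windows in RefSeq (GRCm38.p6, 250 bases before to 50 after a start site) were found for 39 of the 46 members, in 42 windows. Both strands were searched for 4 short motifs. The core CCGGAAG, bound by ETS factors, was in 16 of 42 member windows (38.1%), 16.8% of the windows of tested genes and 8.86% of all windows. The antioxidant response core TGACNNNGC, the element that Nfe2l1 and Nfe2l2 bind, was in 6 (14.3%), beside 13.9% of tested genes and 12.4% of all windows. CCAAT was in 13 (31%), beside 37.7% and 37.4%, and the interferon response core, which is GAAA, any 2 bases and GAAA, was in 5 (11.9%), beside 2.66% and 3.44%. Psmb10 had none of the 4 motifs in its window. The windows of Psmd11, Psma7 and Psmb5 are printed to show where these letters lie in 2 called members and in a catalytic subunit, with the motif in capitals: in Psmd11 the ETS core on the minus strand, first base at -11 from the start site (chr11:80428365-80428664, plus strand), in Psma7 the CCAAT box at -196 (chr2:180042415-180042714, minus strand), and in Psmb5 the antioxidant response core at -47 (chr14:54617946-54618245, minus strand). A match describes the letters and not a bound site.
Psmd11: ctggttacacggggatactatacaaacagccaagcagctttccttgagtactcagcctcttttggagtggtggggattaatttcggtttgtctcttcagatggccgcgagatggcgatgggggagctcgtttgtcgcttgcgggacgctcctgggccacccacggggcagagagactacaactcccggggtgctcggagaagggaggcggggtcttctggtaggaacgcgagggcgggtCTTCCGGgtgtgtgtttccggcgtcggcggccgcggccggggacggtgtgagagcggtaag
Psma7: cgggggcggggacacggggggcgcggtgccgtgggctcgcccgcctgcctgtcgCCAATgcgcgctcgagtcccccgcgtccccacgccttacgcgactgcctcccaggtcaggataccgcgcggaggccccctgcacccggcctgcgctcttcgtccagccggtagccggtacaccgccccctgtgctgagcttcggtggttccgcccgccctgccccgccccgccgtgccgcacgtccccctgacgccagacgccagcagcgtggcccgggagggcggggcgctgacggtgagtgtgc
Psmb5: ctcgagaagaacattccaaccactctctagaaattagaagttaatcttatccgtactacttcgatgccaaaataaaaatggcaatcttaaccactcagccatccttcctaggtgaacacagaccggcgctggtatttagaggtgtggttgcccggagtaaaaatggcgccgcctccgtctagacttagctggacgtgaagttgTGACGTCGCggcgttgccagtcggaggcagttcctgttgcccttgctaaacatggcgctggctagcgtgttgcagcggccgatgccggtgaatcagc

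Other parts of the ubiquitin pathway were read from lists written with earlier results in view. Of 10 measured proteasome genes outside the naming rule none passed. The nearest was Sem1, a small lid subunit, with 37.3 to 50.0 FPKM in PAE and 32.9 to 40.2 in SAC and an adjusted p of 0.0540. Of 28 ubiquitin-conjugating enzymes tested, 1 (3.57%) was higher, Ube2r2 (log2 difference 0.12), and none lower, beside 9.56% of all genes. None of 7 ubiquitin and E1 genes passed, Rps27a having the smallest p. Among 13 shuttle factors and p97 partners 1 passed (7.69%). It was Ubxn1, which binds p97, higher at 171 to 191 FPKM in PAE and 144 to 164 in SAC, without overlap, at a log2 difference of 0.20 and an adjusted p of 0.0203.

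Of 7 antigen-processing genes tested, which act on the peptides that proteasomes release, 1 passed (14.3%), Pdia3, which was lower at a log2 difference of -0.12. Of 21 genes of the COP9 signalosome and of eIF3, which are built like the lid, 4 were higher and none lower. They were the translation initiation subunits Eif3k (0.20), Eif3e (0.17), Eif3f (0.15) and Eif3h (0.13), and no COP9 gene passed. These 4 made up 19% of the list, beside 9.56% of all genes. In all, 8 genes of these lists passed.

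Neuronal markers were abundant in every library, with sums of 1222 to 1409.9 FPKM in PAE and 1333 to 1385 in SAC, as befits the brain label. Markers of other cell classes differed between the groups, and in whole brain fewer cells of a type and less RNA per cell cannot be told apart. Of 7 radial glia and progenitor markers 2 were higher in PAE (all genes 4.34%), Eomes (log2 difference 0.57) and Nes (0.26). Their sum ran from 107 to 134 FPKM in PAE and from 92.2 to 108 in SAC. Astrocyte markers were lower in 3 of 6 (all genes 5.22%), with sums of 150 to 276 in PAE and 238 to 325 in SAC, as were 3 of 5 oligodendrocyte markers. No neuronal, microglial or red cell marker passed. The 14 Hox genes measured, which mark hindbrain and spinal cord, summed to 62.9 FPKM in ES19-4 and 0.0475 to 0.178 in the other PAE brains, and to 0.261 in SAC12-6 and 24.6 to 70.2 in the other SAC brains. With the Hox level as a covariate no member and no gene at all passed. Hox level and treatment went together in all brains but ES19-4 and SAC12-6, so this fit could hardly separate them. Its log2 differences were 0.11 for Psmb1, 0.28 for Psmd11, 0.21 for Psma7 and 0.18 for Psmc3ip. Without the covariate they were 0.11, 0.29, 0.17 and 0.32. Without ES19-4 and SAC12-6 5 members passed (11.1%, all genes 17.2%), the same 4 and Psmb10. Psmb10 was at 5.28 FPKM in ES19-4 and 3.02 to 4.51 in the other PAE brains, and at 4.80 in SAC12-6 and 4.86 to 5.70 in the other SAC brains. Every brain with a Hox sum of 24.6 FPKM or more thus lay above every other brain for Psmb10. The part of tissue make-up in the proteasome differences, Psmb10 included, was not tested beyond these fits.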

How the data were processed

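RNA was extracted from whole brains, libraries were made with a Kapa stranded kit, poly-A RNA was sequenced as paired ends, and the authors ran FastQC for quality and cutadapt for adapters before alignment in HISAT2 (to a mouse genome named GRCm28 in the methods) and abundance estimates in StringTie and Ballgown. No versions of these were found in the sources used here. Both deposited tables give FPKM, computed by the authors per gene and per transcript, that is fragments scaled by feature length and library depth. They hold no read counts, so depth and counting error per library are unknown, and strand use in the counting is not stated. The tables hold 13770 gene models and 29097 transcripts, and each was used with 1 line emptied. Positions come from the gene table, and 44 of 46 member models match GRCm38 (GENCODE M21) exactly. Exons of 13 members overlap another gene.

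FPKM were transformed to log2(FPKM + 1), which understates the change of low genes. Genes whose 12 libraries averaged 1 FPKM or more (12346 genes) were tested with limma 3.58.1 in R 4.3.3 (empirical Bayes with a variance trend, Benjamini-Hochberg over all genes), and adjusted p-values come from limma. The comparison of PAE and SAC used 12 brains and no covariate. The within-sex comparisons and the interaction came from 1 fit of the 4 groups, and the sex difference from an additive fit. Brains were taken as independent, so p-values reflect only how far these brains spread, which may be technical in part. The scripts were tested on simulated data. Figures were drawn in Python with matplotlib.

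Members and lists were chosen with earlier results of these data known. Named genes were every member called, the largest and smallest log2 difference of each role class, the catalytic subunits and their counterparts, Psme1 and Psme2, the highest and lowest mean, the smallest p of the interaction and of each sex, and, in each pathway list, the called genes or those with the smallest p. Psmb3, Psmd1, Psmd3, Psmd8, Psmd14, Psmg4, Cdipt, Nfe2l1-203 and markers were named after their values were seen, as were the transcript values. Alternatives were pseudocount 0.1, no filter or one at 5 FPKM, median-of-ratios and quantile scaling, sex or Hox level as a covariate, the name prefix as a random block or as means, library weights, no moderation, a loess correction on GC content and length, transcript sums, and leaving out libraries.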

Additional observations from a re-analysis of the deposited data

Results flagged for a closer look

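Each member was checked in each group of 6 brains for a single library far from the other 5. Of 92 such groups 10 held one, and chance gives about 1 in 20. In 6 of the 10 the library was the female PAE brain ES23-7. Over all genes tested, ES23-7 was the lowest of the 12 brains for 17.0% and the highest for 22.1%. Among the flagged members it stood at both ends. It was the lowest for Psma2 (29.9 FPKM, other PAE brains 34.4 to 35.6), Psma4 (54.5, others 78.8 to 83.0), Psmc1 (60.2, others 72.3 to 77.6), Psme2 (15.4, others 18.9 to 20.8) and Psmg4 (45.2, others 68.3 to 81.8). It was the highest for Psma5 (65.2, others 54.3 to 58.0). Another PAE brain, ES23-4, was the highest for Psmd9 (5.31, others 4.78 to 4.93). Among SAC brains, SAC26-5 was high for Psmc4 (45.0, others 37.1 to 40.0), SAC26-8 low for Psmc6 (34.0, others 36.7 to 38.1) and SAC12-6 high for Psmd3 (24.6, others 13.1 to 14.1).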

How the results depend on the processing

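Of the members, 4 passed in PAE vs. SAC as reported. The count was 2 under quantile normalization (4.44%, all genes 9.04%) and 1 without moderation (2.22%, all genes 5.52%). It was 0 with the Hox level as a covariate or with means of the 5 name prefixes. In each of the last 2 settings 0 genes of the whole table passed. Leaving out 1 library gave 0 to 6 members, beside 1% to 19.3% of all genes. In females alone it gave 0 to 1 members, and the share over all genes there was not recorded. The 8 genes of the pathway lists (all genes 9.56%) became 5 with the prefix as a random block (correlation 0.0464, all genes 6.82%). Their count was 3 in transcript sums (all genes 4.42%) and 14 without ES19-4 and SAC12-6 (all genes 17.2%). It was 0 with prefix means and with the Hox covariate, where 0 genes of the whole table passed. Leaving out 1 library gave 0 to 17, beside 1% to 19.3% of all genes. The other settings kept the member count between 3 and 5, beside 4.42% to 17.2% of all genes.

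Changes of sign were seen only in members that did not pass. Psmc5 turned to 0.0088 with the Hox covariate and 0.034 in transcript sums, Psmd7 to 0.0090 and Psmg2 to -0.065 with the Hox covariate. Transcript sums gave -0.082 for Psmd13, -0.047 for Psme2 and -0.16 for Psmf1. Without ES19-4 and SAC12-6, Psmc2 was at -0.0024 and Psmd5 at -0.052. Leaving out 1 library gave ranges across 0 for Psma1 (-0.0094 to 0.074), Psma4 (-0.0089 to 0.12), Psmc2 (-0.0081 to 0.034), Psmc3 (-0.0091 to 0.057), Psmc5 (-0.046 to 0.014), Psmd2 (-0.049 to 0.00047), Psmd5 (-0.038 to 0.054) and Psmg2 (-0.022 to 0.060). The causes were not tested. No paired analysis was possible because nothing in the labels links a given PAE brain to a given SAC brain. FPKM without counts leave the counting error of low members such as Psmb8 unknown.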
